A study of Mus musculus with 8 samples.

Results

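Hnf4a, Hnf4g and Klf4 encode 3 transcription factors of the gut lining, and they were taken by gene symbol from a deposited table of 1428 genes, in which all 3 have a row. The table compares colon tumours of wild-type mice (WT, 4 libraries) with colon tumours of mice labelled miR-29ab1Vilin-KO (KO, 4 libraries). All 8 libraries are from C57BL/6N mice, and the design text gives azoxymethane and dextran sodium sulfate as the agents that produced the tumours. The disruption of miR-29ab1 is described as conditional and specific to the intestinal epithelium, and the KO title names villin, an epithelial protein. Other cell types of a tumour would then keep the microRNA. Age, sex, the Cre status of the WT mice and the number of tumours or mice behind a library are not stated in the labels. Libraries may or may not come from separate mice, so any p-value covers only the variation among the 8 libraries, part of which may be technical.

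HNF4 alpha and HNF4 gamma are closely related nuclear receptors that bind the same DNA element and switch on absorptive genes of enterocytes and colonocytes. KLF4 is a zinc finger factor made mainly in cells that have left the dividing crypt compartment. It is known for slowing the cell cycle and for a role in the formation of colonic goblet cells. The microRNA miR-29 lowers transcripts that pair with its seed, which are bases 2 to 8 of the mature strand.

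The 2 microRNAs of the deleted cluster are shown first, because all 3 genes carry a match to their seed. Sequences are from RefSeq on GRCm38.p6, 5′ to 3′, with the seed in capitals. Mir29a lies on the minus strand of chromosome 6, where its mature strand spans 31062673 to 31062694, and Mir29b-1 lies beside it, with its mature strand at 31063025 to 31063047.
miR-29a-3p: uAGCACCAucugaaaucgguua
miR-29b-3p: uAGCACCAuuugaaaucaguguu

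The related microRNA genes Mir29b-2 and Mir29c, on chromosome 1, give mature strands with the same seed and are not named in the KO label. Neither Mir29a nor Mir29b-1 is among the 1428 genes, so the deletion itself was not analysed here.

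In GENCODE M21 transcripts (GRCm38), the longest annotated 3′ untranslated region (UTR) of each of the 3 genes holds exactly 1 copy of the 7 bases that pair with the seed. These are shown as 24-base windows in the sense of the transcript, with the 7 bases in capitals.
Hnf4a site: cctcttccttccTGGTGCTggtca
Hnf4g site: aaggcttcttcaTGGTGCTgttat
Klf4 site: cagcctaaatgaTGGTGCTtggtg

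The capitals of Hnf4a lie on chromosome 2 at 163570484 to 163570490, plus strand, and begin 393 bases after the stop codon in a UTR of 2819 bases. For Hnf4g they lie on chromosome 3 at 3657278 to 3657284, plus strand, 102 bases after the stop codon in a UTR of 876 bases. For Klf4 they lie on chromosome 4 at 55527562 to 55527568, minus strand, 557 bases after the stop codon in a UTR of 982 bases. None of the 3 matches is followed by A, so none is of the longer 8-base class. Hnf4g carries 1 further copy of the 7 bases before its stop codon, and Hnf4a and Klf4 carry none there.

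Such matches are not rare. Of 21005 genes with an annotated 3′ UTR, 2751 hold one (13.1%), and of 1029 such genes that are listed, 167 do (16.2%). The share rises with length: it is 9.66% among 4193 genes with UTRs of 687 to 1304 bases, as in Hnf4g and Klf4, and 33.1% among 4196 genes with UTRs of 2386 bases or more, as in Hnf4a. A match is a description of the sequence; binding of miR-29 to these 3 transcripts was not measured.

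**Figure D1:**
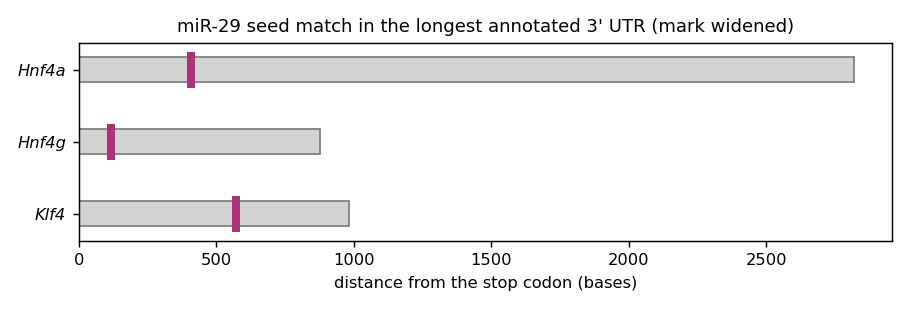
Position of the miR-29 seed match (purple mark, drawn wider than its 7 bases) in the longest annotated 3′ UTR of each gene (grey bar), on an axis of bases after the stop codon. The match begins at 102 bases in Hnf4g, 393 in Hnf4a and 557 in Klf4.

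Values below are normalized counts, that is, gene counts divided by a size factor for each library. Every gene in the table has an unadjusted p below 0.05 for KO against WT. The difference between the groups is thus how a gene came to be listed, and for these 3 genes it is given as a description. In a bulk tumour, more cells that make a transcript and more transcript per cell cannot be told apart. The values of the listed genes correspond to between 1202677 and 2180787 whole reads per library, with the most in KO replicate 4. That is a sum over listed genes and not the depth of the libraries, which is unknown.

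Of the 3 genes, Hnf4a was the most abundant and the steadiest among WT tumours. Its normalized counts were 5904, 7600, 7820 and 7532 in WT replicates 1 to 4. In KO replicates 1 to 4 they were 8832, 9590, 9197 and 22661. The 4 KO libraries all lay above the 4 WT libraries, 3 of them in a narrow band just above and KO replicate 4 far above. The means were 7214 ± 882 in WT tumours and 12570 ± 6735 in KO tumours (SD, n = 4 each), a KO to WT ratio of 1.74. Without KO replicate 4 the KO mean was 9206 ± 379 (SD, n = 3), 1.28 times the WT mean, and the groups still did not overlap.

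Hnf4g showed the same arrangement at a far lower level. Its WT values were 104.1, 119.2, 160.8 and 76.9 normalized counts in replicates 1 to 4. Its KO values were 168.7, 174.7, 167.3 and 512.7. KO replicates 1 to 3 lay within a few counts of one another, a short step above the highest WT library, and KO replicate 4 stood alone. Group means were 115.2 ± 35.1 in WT tumours and 256 ± 171 in KO tumours (SD, n = 4 each), a KO to WT ratio of 2.22, or 1.48 without KO replicate 4.

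The separation of Hnf4g rests on few reads. WT replicate 3 had 159 reads and KO replicate 3, the lowest KO library, had 188. Their exact 95% Poisson intervals, which cover counting error only, run from 136.8 to 187.8 and from 144.2 to 193.0 normalized counts, so these 2 libraries are not apart beyond counting error. The intervals of KO replicates 1 and 2, which start at 144.6 and 148.9, overlap that of WT replicate 3 as well. KO replicate 4, with 524 reads, had an interval of 469.8 to 558.6, which lies clear of the other libraries. For Hnf4a, the interval of the highest WT library ended at 7996, below the start at 8652 of the interval for the lowest KO library.

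Klf4 differed from both HNF4 genes in that its groups overlapped. It stood at 2506, 3754, 4307 and 1037 normalized counts in WT replicates 1 to 4. In KO replicates 1 to 4 it stood at 3157, 4627, 2471 and 18058. Outside KO replicate 4, the KO values fell within or close to the WT range, and KO replicate 3 was lower than 3 of the 4 WT libraries. The means were 2901 ± 1453 in WT tumours and 7078 ± 7375 in KO tumours (SD, n = 4 each). The KO to WT ratio of 2.44 dropped to 1.18 without KO replicate 4, where the KO mean was 3419 ± 1102 (SD, n = 3), so the higher KO mean of Klf4 depended on that library.

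**Figure D2:**
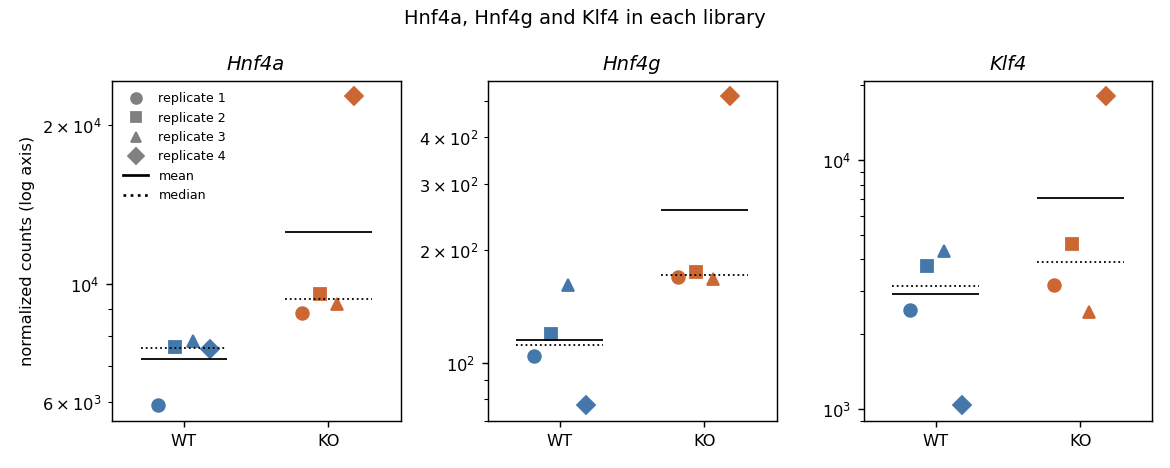
Normalized counts of Hnf4a, Hnf4g and Klf4 (log axis) in 4 WT and 4 KO libraries, with the replicate number as the symbol, the group mean as a solid line and the group median as a dotted line. KO replicate 4 is the highest library for each gene, and the groups overlap only for Klf4.

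By the medians of 4 libraries, which KO replicate 4 moves less, the KO to WT ratio was 1.24 for Hnf4a, 1.54 for Hnf4g and 1.24 for Klf4. Groups that do not overlap with KO higher were found in 2 of the 3 genes, and in 342 of all 1428 listed genes (23.9%). Only the 829 genes listed as higher can meet this, and all 3 genes are among them. The 599 genes listed as lower cannot, so 23.9% understates the share among genes of the same direction. Without KO replicate 4 the same 2 of the 3 genes were separate, beside 372 listed genes (26.1%).

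None of the 3 genes passed an adjusted p of 0.05. The authors' deposited table gives Hnf4a a log2 fold change of 0.80 with an unadjusted p of 0.0197 and a DESeq2 adjusted p of 0.649. For Hnf4g the authors' deposited table gives 1.15, with p = 0.00970 and a DESeq2 adjusted p of 0.572. For Klf4 the authors' deposited table gives 1.29, with p = 0.0405 and a DESeq2 adjusted p of 0.700. Across the genes behind that adjustment, 8 of 19985 passed (0.04%). A DESeq2 refit of the reads recovered from the listed genes put the standard error, on the log2 scale, at 0.35 for Hnf4a, 0.46 for Hnf4g and 0.67 for Klf4. Without KO replicate 4, edgeR gave log2 fold changes of 0.35, 0.56 and 0.24 in the same order, with unadjusted p-values of 0.0211, 0.0624 and 0.570.

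In the coordinates of the table, which uses gene identifiers of the C57BL/6NJ annotation, Hnf4a lies on the plus strand of chromosome 2 from 173786840 to 173852880. Hnf4g lies on the plus strand of chromosome 3 from 596785 to 787252, and Klf4 on the minus strand of chromosome 4 from 56199518 to 56205320. All are annotated as protein-coding. In GENCODE M21 the first part of Hnf4a lies opposite an antisense gene, Hnf4aos. The library kit marks strand, but the labels do not state whether the counting used it. Reads of that stretch may come from either gene.

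Levels of different genes were compared per kilobase of the gene length in the table. In WT tumours Hnf4a stood at 1494 ± 183 normalized counts per kb, Klf4 at 948 ± 475 and Hnf4g at 43.8 ± 13.3 (SD, n = 4). Hnf4a and Klf4 overlapped in that order, since WT replicate 3 reached 1408 per kb for Klf4 while WT replicate 1 was at 1223 for Hnf4a. Hnf4g lay below both in each of the 8 libraries. In KO tumours the levels per kb were 2604 ± 1395 for Hnf4a, 2314 ± 2411 for Klf4 and 97.3 ± 65.1 for Hnf4g (SD, n = 4).

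The ratio of Hnf4a to Hnf4g within a library is free of the size factor. Per kb it was 30.9, 34.7, 26.5 and 53.4 in WT replicates 1 to 4, and 28.5, 29.9, 29.9 and 24.1 in KO replicates 1 to 4. Hnf4a thus exceeded Hnf4g at least 24.1-fold in every library, and WT replicate 4 stood highest. The Hnf4a to Klf4 ratio per kb ran from 0.795 in KO replicate 4, the one library where Klf4 was above Hnf4a, to 4.60 in WT replicate 4, where Klf4 was lowest.

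The table assigns a transcription factor family to 75 listed genes, of which 59 were higher and 16 lower in KO (78.7% higher), while 829 of all 1428 listed genes were higher and 599 lower (58.1% higher). By WT level per kb, Hnf4a ranked 3 and Klf4 ranked 5 among these 75, with Klf5 at rank 1. By KO level per kb, Hnf4a ranked 2 and Klf4 ranked 3, again behind Klf5. Without KO replicate 4, Hnf4a kept rank 2 at 1906.9 ± 78.5 per kb in KO (SD, n = 3), whereas Klf4 dropped to rank 5 at 1118 ± 360. The median of the 75 in WT was 56.8 normalized counts per kb, so Hnf4g lay a little below the middle. Hnf4a and Hnf4g are the 2 listed genes of the family named RXR-like there, and Klf4 is 1 of 25 listed zf-C2H2 genes, of which 20 were higher (80.0%).

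**Figure D3:**
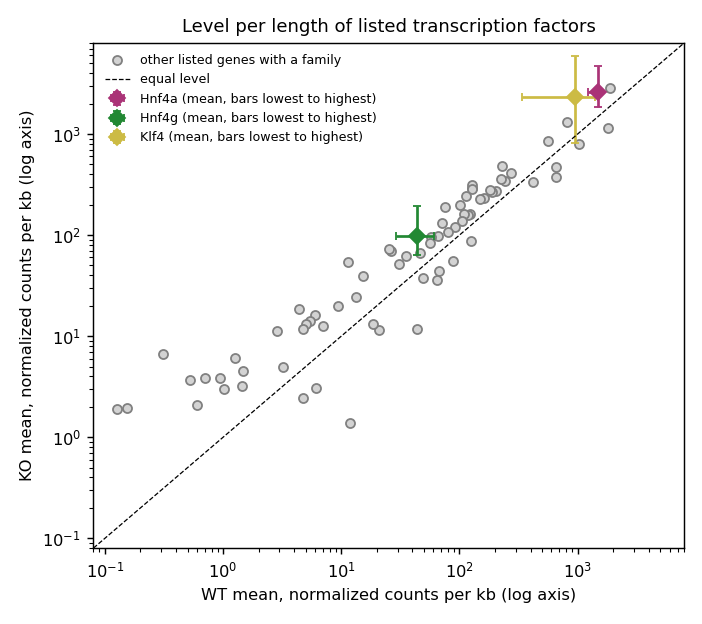
Mean level in KO against mean level in WT, in normalized counts per kb on log axes, for the 75 listed genes with a transcription factor family; the dashed line marks equal levels. Diamonds are Hnf4a, Hnf4g and Klf4 with bars from the lowest to the highest of 4 libraries, and Hnf4a and Klf4 lie among the most abundant.

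Whether the 3 genes moved together was examined within groups. Genes listed as higher in the same contrast share the direction of the difference between group means, and working within groups removes that difference. It does not remove the weight of KO replicate 4 in the listing, so the p-values below are not independent of the listing. Among KO libraries the order from high to low was replicate 4, 2, 1, 3 for both Hnf4g and Klf4. Among WT libraries it was replicate 3, 2, 1, 4 for both. Hnf4a shared the 2 highest libraries of each group with them and had the lower 2 in the opposite order.

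For each library, the log2 of the value plus 1 was set against its group mean, and the deviations were correlated over the 8 libraries with an exact permutation test within groups, two-sided, over 3 pairs. Hnf4g and Klf4 gave a Pearson r of 0.95 (exact p = 0.00174, the smallest that 576 permutations can give; adjusted p = 0.00521) and a Spearman rho of 1.0 (exact p = 0.00347, adjusted p = 0.0104). Hnf4a and Hnf4g gave r = 0.87 (exact p = 0.0660, adjusted p = 0.0677) and rho = 0.80 (exact p = 0.0625, adjusted p = 0.0625). Hnf4a and Klf4 gave r = 0.77 (exact p = 0.0677, adjusted p = 0.0677) and rho = 0.80 (exact p = 0.0625, adjusted p = 0.0625). Only the pair of Hnf4g and Klf4 passed the threshold of 0.05 after adjustment. The rho of 1.0 for that pair uses an order of Hnf4g among libraries that counting error leaves partly unsettled.

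KO replicate 4 carried much of this for Hnf4a. Without it, r fell to 0.26 for Hnf4a with Hnf4g (exact p = 0.528) and to 0.15 for Hnf4a with Klf4 (exact p = 0.785). For Hnf4g with Klf4 it stayed at 0.89 (exact p = 0.00694, adjusted p = 0.0208). Leaving out the 2 libraries farthest from the median of the first gene gave r = 0.44 for Hnf4a with Hnf4g and r = 0.50 for Hnf4a with Klf4, in both cases without KO replicate 4 and WT replicate 1. For Hnf4g with Klf4, without KO replicate 4 and WT replicate 4, r was 0.66 (exact p = 0.111), so that relation rests in part on those 2 libraries. The correlated values come from the same 8 libraries and share their size factors.

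**Figure D4:**
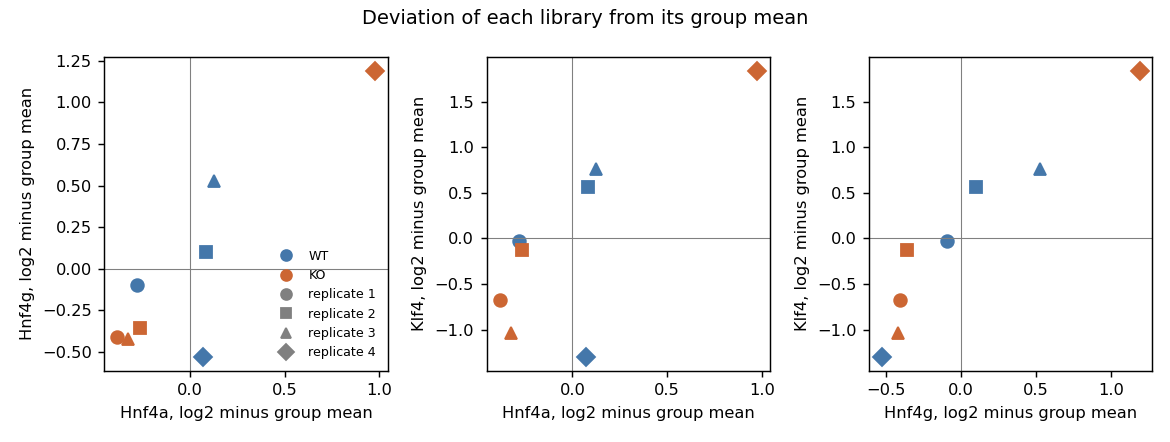
Deviation of each library from its group mean, on the log2 scale, for each pair of genes; colour gives the group and symbol the replicate number. Points of Hnf4g and Klf4 rise from WT replicate 4 to KO replicate 4 (r = 0.95, and 0.66 without these 2 libraries). KO replicates 1 to 3 nearly coincide for Hnf4g but are spread for Klf4. WT replicate 4 lies apart from this rise in both plots with Hnf4a.

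Many other listed genes followed the same libraries. The genes most like each factor were ranked by the same group-centred r over 8 libraries, among 742 listed protein-coding genes with a mean of at least 100 normalized counts. Those closest to Hnf4a were Plekha6 (r = 0.98), Stim1, Nbn, Luzp1 and Serhl; to Hnf4g, Pik3c2b (r = 0.99), Pdzd7, Slc10a5, Clec16a and Dopey2; and to Klf4, Vps13d (r = 0.99), Tmem45b, Hpgd, Trappc10 and Sema4g. On this ranking Klf4 stood at place 32 for Hnf4g, and Hnf4g at place 85 for Hnf4a, while r exceeded 0.8 for 25.2% of the 742 genes with Hnf4g and for 19.9% with Hnf4a. Leaving out 1 library kept between 0 and 4 of the 5 genes in any of these sets, so the names are specific to the full set of 8 libraries.

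Partners and related genes were taken from lists of genes with known roles. The lists were chosen with earlier results of these data known, so their listed shares and directions are not independent of the data. For scale, 7.06% of the 19985 genes are listed in the table with an adjusted p, 4.09% higher and 2.97% lower in KO. Listing needs only an unadjusted p below 0.05, and 8 of the 19985 genes passed after adjustment, so many listings may be due to chance. Of 20 partners and co-regulators of HNF4, 2 were listed, both higher, and neither passed the adjusted threshold. Ncoa1, a nuclear receptor coactivator and 1 of the 2, had 533 ± 128 normalized counts in WT tumours and 935 ± 381 in KO tumours (SD, n = 4). Its groups overlapped, and without KO replicate 4 its KO to WT ratio was 1.41.

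RefSeq gives Hnf4a 2 start sites on GRCm38.p6, and Klf4 1. Windows of the 250 bases before each of these start sites were searched for 3 motifs on both strands. For the upstream start site of Hnf4a, only the first 201 bases of the window were searched. They end at a GENCODE M21 transcript start inside it, so the bases next to the RefSeq start were left out. The letters CAAAGTCC (HNF4), CACACCC (KLF4) and TTTATG (CDX) were found in none of these 3 windows. Of 32851 RefSeq windows of 250 bases, 1.20% hold the first, 6.93% the second and 10.8% the third. The Klf4 window is rich in G and C (74.0%, with 32 CpG pairs), compared with 57.6% and 4 pairs in the downstream Hnf4a window. The 201 bases of the upstream Hnf4a window had 47.3% and 1 pair. Medians over the 32851 windows were 52.4% and 6 pairs. Counts are per gene, so the 2 Hnf4a promoters could not be compared in these tumours.

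Of 69 genes known to respond to HNF4 in the gut, 8 were listed (11.6%), 7 higher and 1 lower, and none passed an adjusted p of 0.05. By the authors' deposited table, the median of their log2 fold changes was 0.84, beside 0.48 over all 1428 listed genes. Without KO replicate 4, the median log2 ratio of KO mean to WT mean was 0.29 for the 8 genes and 0.32 for all listed genes. Of the 8, 3 had groups that did not overlap, all with KO higher, beside 342 of all 1428 listed genes (23.9%). The 1428 include 599 genes listed as lower, which cannot be separate in that direction, whereas 7 of the 8 were higher. Without KO replicate 4 the count was also 3 of the 8, beside 372 of all listed genes (26.1%). Whether these shares differ was not tested.

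The brush border is the dense layer of microvilli on absorptive cells, and 4 of 24 of its genes and neighbours were listed, all higher. Cdhr5 and Cdhr2 are the cadherins that link microvillus tips. Cdhr5 stood at 6194 ± 558 normalized counts in WT tumours and 10720 ± 5408 in KO tumours (SD, n = 4), with separate groups. Cdhr2 stood at 4385 ± 513 in WT tumours and 7707 ± 5058 in KO tumours, with KO replicate 3 at 4804 below WT replicate 2 at 5005, and its KO to WT ratio was 1.18 without KO replicate 4. Plec, which encodes the cytoskeletal linker plectin, was at 9657 ± 2079 in WT tumours and 14266 ± 793 in KO tumours, and its KO libraries lay close together with no excess in KO replicate 4. Mep1a, a brush border protease, reached 4431 in KO replicate 4, 9.87 times the WT mean. Without that library its KO to WT ratio was 1.26.

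Among 23 genes of lipid handling, 1 was listed higher and 1 lower. Apob, the core protein of lipoprotein particles, was at 998 ± 548 in WT tumours and 2417 ± 2565 in KO tumours (SD, n = 4), and at 1.16 times the WT mean without KO replicate 4. Among 22 genes of drug and bile handling, 2 were listed, both higher. Abcc3, an export pump of the basolateral membrane, stood at 1824 ± 199 in WT tumours and 3322 ± 1226 in KO tumours with separate groups, and at 1.49 times the WT mean without KO replicate 4. Abcb1a, an apical drug pump, stood at 1198 ± 689 in WT tumours and 3951 ± 5268 in KO tumours, and at 1.11 times the WT mean without that library.

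Of 25 genes of mature surface colonocytes, 3 were listed, all higher. Lypd8, a secreted colonic protein that keeps bacteria from the surface, was at 73273 ± 24323 in WT tumours and 141136 ± 68669 in KO tumours (SD, n = 4), with separate groups and a KO to WT ratio of 1.46 without KO replicate 4. Scnn1a, a subunit of the epithelial sodium channel, was at 889 ± 406 in WT tumours and 2080 ± 1501 in KO tumours. Ceacam20, a microvillus adhesion protein, was at 1301 ± 454 in WT tumours and 2741 ± 2208 in KO tumours. The groups of both overlapped, and without KO replicate 4 the KO to WT ratio dropped from 2.34 to 1.503 for Scnn1a and from 2.11 to 1.26 for Ceacam20. None of 18 goblet cell genes was listed.

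Among 22 nuclear receptors of the gut other than the HNF4 genes, 6 were listed, all higher, and none passed the adjusted threshold. Their median log2 ratio of KO mean to WT mean was 1.35, and 0.36 without KO replicate 4. The 4 with the smallest p were Esrrg, Nr1i3, Ppara and Pparg. Esrrg, an orphan receptor, was at 377 in KO replicate 4 and at 1.02 times the WT mean in the other KO libraries together. Ppara, the fatty acid sensor, was at 2.64 times the WT mean, or 1.57 times without KO replicate 4, and Pparg at 1.40 times, or 1.30 times without it. Nr1i3, a drug sensor, had 4.53 ± 2.42 normalized counts in WT tumours and 13.3 ± 4.36 in KO tumours (SD, n = 4), a level of few reads. Its groups were separate by a margin far within counting error, with KO replicate 3 at 7.12 and WT replicate 4 at 7.08.

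In the KLF and SP family, 25 relatives of Klf4 were looked up and 2 were listed, 1 in each direction. Klf5, which is made in dividing crypt cells and is often described as acting opposite to KLF4, stood at 3322, 3525, 4244 and 1834 normalized counts in WT replicates 1 to 4. In KO replicates 1 to 4 it stood at 5644, 4436, 5363 and 4308. The groups were separate, and KO replicate 4 was the lowest KO library for Klf5 while it was the highest for Klf4. Klf11 was lower, at 376.1 ± 50.4 in WT tumours and 235 ± 86.5 in KO tumours (SD, n = 4), with its lowest value in KO replicate 4. The authors' deposited table gives DESeq2 adjusted p-values of 0.680 for Klf5 and 0.686 for Klf11.

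Of 22 cell cycle and epithelial genes linked with KLF4, 3 were listed, 2 higher and 1 lower, none past the adjusted threshold. Ccnd2, a cyclin that promotes entry into the cell cycle, stood at 5094 ± 1957 in WT tumours and 8538 ± 2535 in KO tumours (SD, n = 4). Lgals3, a galactose-binding lectin of surface cells, stood at 9661 ± 3192 in WT tumours and 18346 ± 5404 in KO tumours. Hopx, a homeodomain protein found in slowly dividing crypt cells, stood at 1257 ± 106 in WT tumours and 870 ± 147 in KO tumours, with separate groups and its lowest value in KO replicate 4. The classic KLF4 targets Cdkn1a and Ccnd1 were not listed.

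Stem cell and proliferation genes were looked up as well. Of 19 stem cell and Wnt genes, Ascl2 alone was listed, lower, at 1060 ± 151 in WT tumours and 767.2 ± 92.3 in KO tumours (SD, n = 4). Of 17 proliferation genes, Top2a and Birc5 were listed, both lower. Their KO to WT ratios were 0.749 and 0.702, and 0.798 and 0.738 without KO replicate 4. The groups of all 3 overlapped, and KO replicate 4 was the lowest of the 8 libraries for Ascl2 and Top2a.

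**Figure D5:**
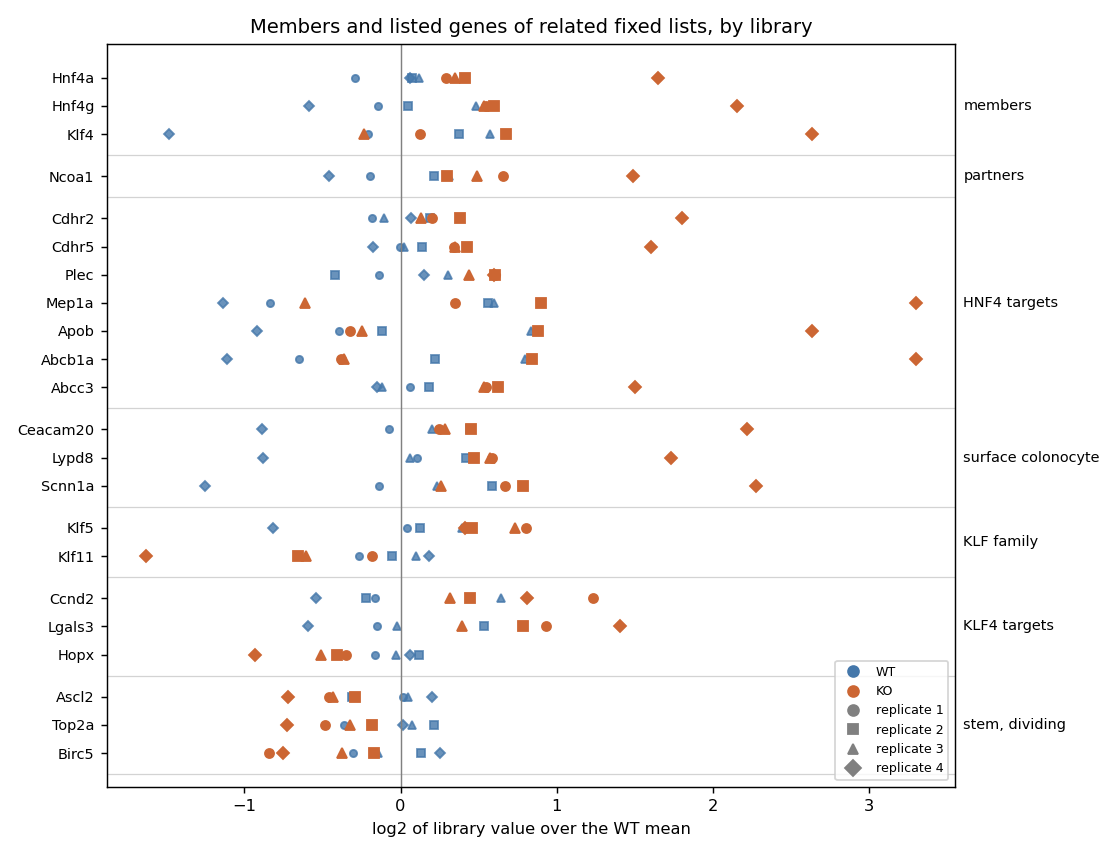
Value of each library over the WT mean, on the log2 scale, for Hnf4a, Hnf4g, Klf4 and listed genes of related gene lists; colour gives the group and symbol the replicate number. KO replicate 4 lies far to the right for Hnf4a, Hnf4g, Klf4, Mep1a, Apob and Abcb1a, and to the left for Klf11 and Hopx. It also lies far to the right for Scnn1a, Ceacam20, Cdhr2, Lypd8 and Cdhr5.

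Genes of some other cell types and of immediate early and stress responses were looked up in the same table. It lists only genes with an unadjusted p below 0.05 between the groups, so an unlisted gene says nothing on how many such cells were present. T cells and mast cells had no list here. KO replicate 4 also held the most B cell transcripts. Of 18 B and plasma cell genes, 13 were listed, all higher, and their summed level ran from 142.8 to 327.8 normalized counts in WT. In KO it was 270.9, 1155, 442.2 and 3674 in replicates 1 to 4, and 7 of the 13 genes were at 0 in at least 1 library. The order of KO libraries by that sum was 4, 2, 3, 1, as for Hnf4a, while Hnf4g and Klf4 had 4, 2, 1, 3. Among WT libraries the order by the sum was 4, 3, 1, 2, which none of the 3 genes shared (Hnf4a had 3, 2, 4, 1). The part of these cells in the values of the 3 genes was not tested. Of 19 immediate early and stress genes, Fos and Fosb were listed higher and Dusp1 lower, and Fosb passed the adjusted threshold in the authors' deposited table (DESeq2 adjusted p = 0.0447), as did Bank1 among the B cell genes (DESeq2 adjusted p = 0.0437). Lyve1 alone was listed of 16 fibroblast, endothelial and muscle genes, and none was listed of 12 myeloid or of 12 small intestine and stomach genes. Of the 27 markers of epithelium, colonocytes, goblet cells, myeloid cells, stroma and small intestine, none was listed, so the labelled tissue was not checked by them.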

How the data were processed

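RNA of mouse colon tumours (4 WT and 4 KO libraries) was made into strand-marking libraries, per the labels' protocols. HISAT2, DESeq2 and the build GRCh38, a human build, are named in the submitters' processing notes, whereas the gene identifiers are of the mouse C57BL/6NJ annotation; no label names the counting tool. The signal per library deposited by the authors is a count divided by a size factor, per the file headers and the values: 100% of values per library came within 0.001 of a whole read. WT replicates 3 and 4 have size factors near 1, where recovered reads are hardest to tell from unscaled values, and WT replicate 3 did not pass a stricter check of this, so its reads are less certain. The log2 fold changes, p-values and adjusted p-values are the authors' deposited ones. The adjusted p-values imply 19985 genes tested.

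Libraries were grouped by title; Hnf4a, Hnf4g and Klf4 and all lists were chosen with earlier results of these data known. Named genes are these 3, the 5 most like each, and up to 4 listed members of each of 16 fixed lists by smallest p, except that some are not reported here; Cdkn1a and Ccnd1, which are not listed, were named in addition. Correlations used log2 of the value plus 1 minus the group mean, with exact permutation within groups and Benjamini-Hochberg adjustment over 3 pairs. As alternatives, reads recovered for the listed genes were fitted with edgeR 4.0.16, DESeq2 1.42.0 and limma 3.58.1 in R 4.3.3, adjusted over 19985 genes. Their spread comes from selected genes, so these fits are no independent test. The edgeR fit was tested on simulated data beforehand, and the DESeq2 and limma fits were not. The same replicate number is not stated to pair libraries. Sequence windows came from RefSeq (GRCm38.p6) and GENCODE M21; the sequence of the Hnf4g promoter was not used here. List medians and level ranks without KO replicate 4 were added after the data had been seen.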

Additional observations from a re-analysis of the deposited data

Results flagged for a closer look

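By Dixon's test at the 95% level, a single library of a group of 4 stood far from the other 3 in 4 cases for the 3 genes. Chance alone gives this in about 1 of 20 independent groups. KO replicate 4 was such a library for Hnf4a (22661 normalized counts), Hnf4g (512.7) and Klf4 (18058). WT replicate 1 was one for Hnf4a, at 5904, on the low side. Among the 44 other listed genes of the gene lists, KO replicate 4 stood apart in 12 and KO replicate 3 in 1. The 3 genes and these 44 were listed on the same values and share the same libraries. Their counts are therefore not to be read against chance, and the same count over all listed genes was not made. KO replicate 4 also stood apart in 12 of the 15 genes most like Hnf4a, Hnf4g or Klf4; these were chosen for likeness to genes in which it already stood apart, so that count follows from the choice and is not to be read against chance. The reason for the distance of KO replicate 4 was not tested.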

How the results depend on the processing

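The log2 fold changes of Hnf4a, Hnf4g and Klf4 kept their sign and stayed above an adjusted p of 0.05 in all 15 other fits each (edgeR, DESeq2, limma with 2 pseudocounts, TMM, a minimum mean, a replicate block and 8 fits without 1 library), with values of 0.35 to 0.94, 0.56 to 1.35 and 0.24 to 1.57. The replicate block in edgeR gave 0.68, 0.97 and 0.78 with unadjusted p-values of 0.0447, 0.0937 and 0.381; same-numbered libraries did not deviate together (r over genes from -0.24 to 0.05). TMM over the listed genes moved the median listed gene by -0.16 on the log2 scale and left Hnf4a and Hnf4g separate (lowest KO 166.9 and highest WT 165.8 for Hnf4g). Without 1 library, KO to WT ratios ran from 1.28 to 1.92 for Hnf4a, 1.48 to 2.56 for Hnf4g and 1.18 to 2.97 for Klf4. Correlations without 1 library ran from 0.26 to 0.98 for Hnf4a with Hnf4g, 0.15 to 0.97 for Hnf4a with Klf4 and 0.89 to 0.97 for Hnf4g with Klf4. The first 2 pairs passed an adjusted p of 0.05 without WT replicate 1 (r = 0.89 and 0.80) or without WT replicate 4 (r = 0.98 and 0.97), and the third no longer passed without the 2 farthest libraries (r = 0.66, exact p = 0.111, adjusted p = 0.167, where fewer libraries allow a smallest p that is higher). Separate list genes numbered 12 to 18 higher and 2 to 5 lower without 1 library, beside 372 to 463 and 317 to 408 of all listed genes. The cause of these shifts was not tested. The depth of the libraries is unknown, and counting error limits Hnf4g most.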
